A study of Caenorhabditis elegans with 2 samples.

Results

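The phat genes of Caenorhabditis elegans take their name from "pharyngeal gland toxin-related". The 6 genes phat-1 to phat-6 were examined here in worms reared on 2 bacterial diets. A probe was taken as theirs when its systematic name on the array led to one of these symbols in the RefSeq gene table, whatever its signal. This gave 10 probes for the 6 genes, out of 43579 probes on the array and 19808 genes with a named probe. phat-5 had 5 probes and each other gene had 1. The scanner software flagged all 10 as well above background on each array, so no member was lost to the filter on dim probes.

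One group of worms was fed Lysinibacillus sphaericus, a Gram-positive bacterium obtained from soil, and the control group was fed Escherichia coli OP50, the standard laboratory food. Both groups were of the N2 strain, received their food after hatching and were kept at 20 °C until they were young adults. Total RNA of whole bodies was labelled with Cy3 and read on 1 one-colour array per diet. There was no replicate, so no difference below has a test or a p-value, and how far worm populations of 1 diet differ is not known.

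The pharynx is the muscular feeding tube of the worm, which draws in bacteria, crushes them and passes them to the intestine. Its gland cells send long processes along the organ and release vesicles into its lumen, during feeding and also at the molts. The basic helix-loop-helix factor HLH-6 is known to be needed for gland development and to drive gland genes. The promoter of phat-1 is used as a reporter for these cells.

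The 6 genes did not move as a group. phat-4 and phat-5 were a little over 2-fold higher in L. sphaericus-fed worms, phat-1 and phat-2 lay within 2-fold, and phat-3 and phat-6 were about 6-fold lower. All values are log2 differences, L. sphaericus-fed minus OP50-fed, after subtracting from each array the 75th percentile of its probes. The error beside each is the scanner software's error of the processed signal on both arrays, which covers the measurement of a spot and nothing of the worms. In whole-body RNA, a changed share of gland tissue in the RNA and a changed amount of RNA per gland cell cannot be told apart.

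On the X-linked gene phat-6 (T10B10.6), the processed signal was 791 intensity units in L. sphaericus-fed worms and 2193 in OP50-fed worms. The lower signal came from the array that was brighter as a whole, since the 75th percentile over all probes was 3348 on the L. sphaericus-fed array and 1437 on the OP50-fed array. After scaling, the log2 difference of phat-6 was −2.70 ± 0.20 (scanner error, 1 array per diet), which is 6.48-fold lower. Of the 15302 measured genes, 5.87% had a lower value.

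phat-3 (C49G7.4) lies on chromosome V. Its signal was 11748 in L. sphaericus-fed worms and 29164 in OP50-fed worms. The log2 difference was −2.54 ± 0.20, or 5.81-fold lower, with 7.55% of the measured genes below it. For phat-3 and phat-6 the signals differed in the same direction before any scaling, 2.48-fold and 2.77-fold lower, so the direction does not hang on the scaling.

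phat-4 (T05B4.3), also on chromosome V, had the opposite pattern. Its signal was 4951 in L. sphaericus-fed worms and 896 in OP50-fed worms, 5.52-fold apart before scaling. The scaled log2 difference was 1.24 ± 0.20, or 2.36-fold higher, and 16.3% of the measured genes had a higher value.

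phat-5 (T05B4.11) was read by 5 probes, which makes it the one member with a check inside the array. Its probes gave 2367, 4140, 5413, 4027 and 3014 intensity units in L. sphaericus-fed worms, and in the same order 487, 760, 1084, 812 and 535 units in OP50-fed worms. Each of the 5 was brighter in L. sphaericus-fed worms, before scaling and after it. The scaled log2 differences ran from 1.05 to 1.27, with a median of 1.09 and an SD of 0.09 over the 5 probes, or 2.13-fold higher. This SD was below 0.18, the median SD for the 2761 genes that had 3 or more measured probes. Probes of a gene share the 2 RNA samples and are not replicates of the diet. The second of the 5 had a local background flagged by the scanner software on 1 array, and without such spots the gene stood at 1.11.

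**Figure D1:**
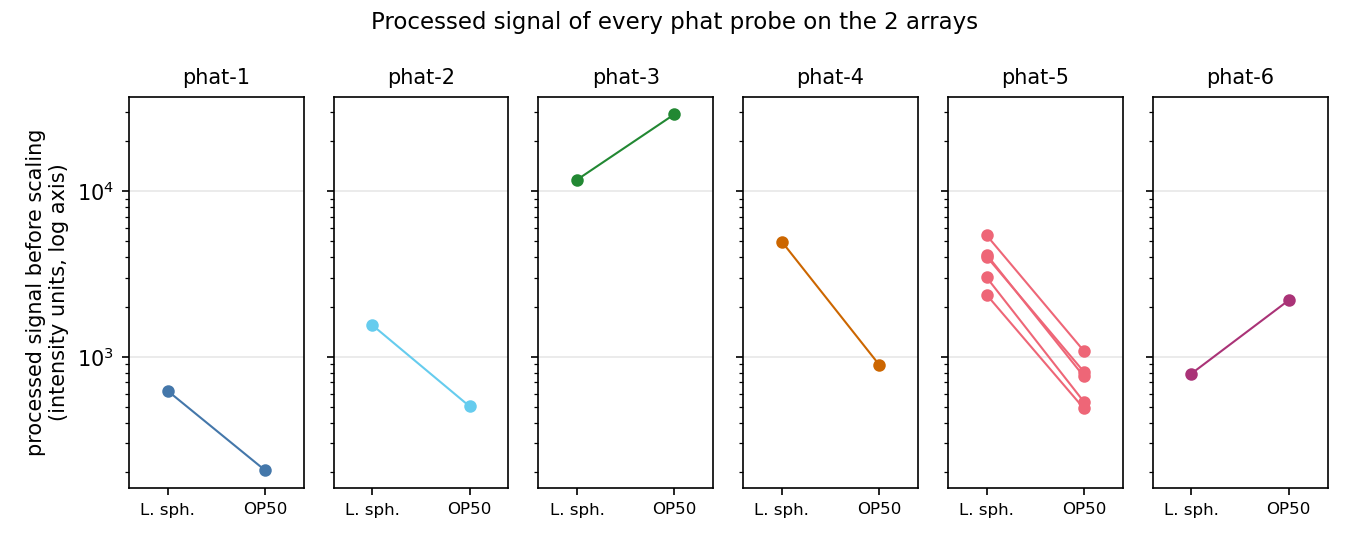
Processed signal of every phat probe, before scaling, in intensity units on a log axis. Each line joins the 2 readings of 1 probe, with the L. sphaericus-fed array on the left and the OP50-fed array on the right. Lines descend to the right for phat-1, phat-2, phat-4 and all 5 probes of phat-5, and climb for phat-3 and phat-6. Heights are not comparable between probes.

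phat-1 (C46H11.8) and phat-2 (C46H11.9), both on chromosome I, were nearly alike in their difference. phat-1 had 623 units in L. sphaericus-fed worms and 207 in OP50-fed worms. phat-2 had 1552 units in L. sphaericus-fed worms and 502 in OP50-fed worms. Before scaling they were 3.01-fold and 3.09-fold brighter on the L. sphaericus-fed array, while the 75th percentile of that array was higher by 1.23 on the log2 scale. After scaling they stood at 0.36 ± 0.21 and 0.40 ± 0.20. For phat-1, the 95% interval from the scanner error ran from −0.04 to 0.77 and included 0. For phat-2 it ran from 0.0019 to 0.80.

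By the 2-fold rule, 2 of the 6 genes were higher, 2 were lower and 2 were between. Of all 15302 measured genes, 22.1% passed 2-fold upward and 32.6% passed it downward, so calls of either kind were common on these arrays. phat-1 and phat-2 passed 2-fold upward as well with median, ribosomal or no scaling, and phat-5 fell short of it, at 0.89, with the 75th percentile of detected probes. With 6 genes, these counts do not set the phat genes apart from the rest. Their median was 0.38, against −0.20 for all measured genes, but no member lay near it except phat-1 and phat-2. The SD of the difference over all genes was 1.61.

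**Figure D2:**
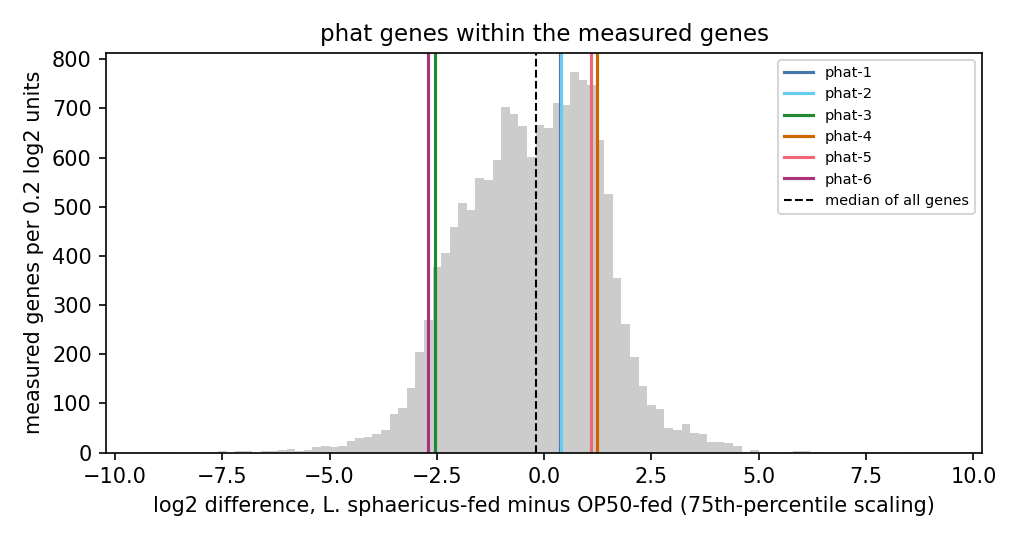
Histogram of the log2 difference, L. sphaericus-fed minus OP50-fed, of the 15302 measured genes in bins of 0.2, with a coloured line at each phat gene and a dashed line at the median of all genes, −0.20. With the main scaling the phat genes stand in 3 places, at −2.70 and −2.54, at 0.36 and 0.40, and at 1.09 and 1.24.

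The distance between 2 members does not depend on a scaling that shifts a whole array. phat-6 and phat-4 were furthest apart, by −3.94 ± 0.29 log2 units (scanner error of both genes), which is 15.3-fold. Ordered from the highest difference to the lowest, the genes ran phat-4, phat-5, phat-2, phat-1, phat-3 and phat-6. Neighbours in this order were within the scanner error of each other in 3 cases. phat-5 minus phat-4 was −0.15 (95% interval from the scanner error −0.71 to 0.42), phat-2 minus phat-1 was 0.04 (−0.53 to 0.61), and phat-6 minus phat-3 was −0.16 (−0.73 to 0.41). With the main scaling, the steps between these pairs were larger than the scanner error. phat-5 minus phat-2 was 0.69 (0.12 to 1.26), and phat-3 minus phat-1 was −2.90 (−3.47 to −2.33). Loess centring and quantile normalization do not shift a whole array, and the upper step was smaller with them. After loess centring phat-1 and phat-2 stood at 1.04 and 0.77, and phat-4 and phat-5 at 1.18 and 1.24. After quantile normalization the values were 0.97 and 0.78, and 1.30 and 1.35. The lower step remained, with phat-3 at −2.62 and −2.57.

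**Figure D3:**
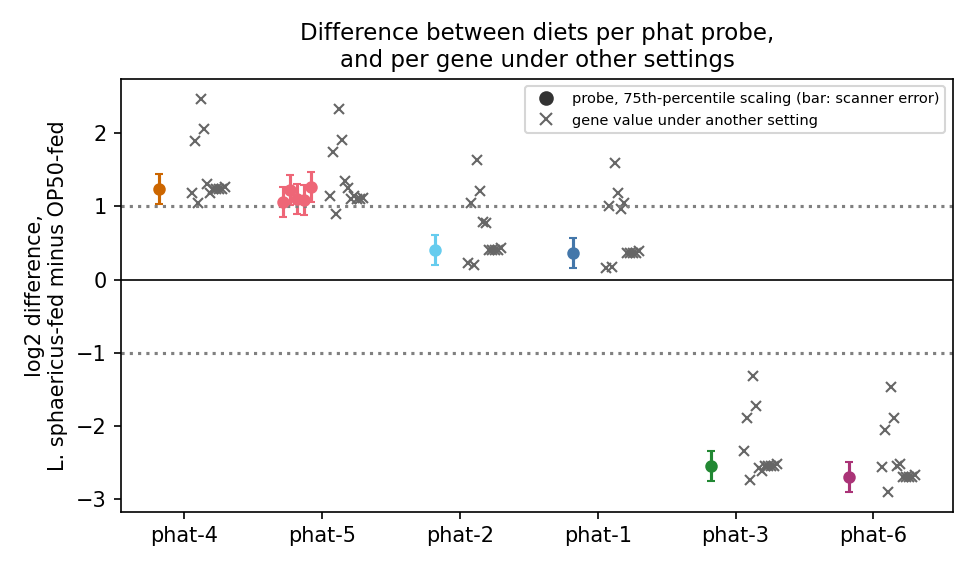
Log2 difference, L. sphaericus-fed minus OP50-fed, of each phat probe with 75th-percentile scaling (coloured points, bars are the scanner error) and of each gene under 12 other settings (grey crosses), with dotted lines at 2-fold. phat-4 and phat-5 lie above 0, and phat-3 and phat-6 lie below −1, in every setting shown. phat-1 and phat-2 rise past the 2-fold line in some settings. phat-5 falls short of it, at 0.89, with the 75th percentile of detected probes.

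Some of these pairs are also neighbours in the genome. In the gene table, phat-1 and phat-2 are next to each other with 1 non-coding gene, C46H11.12, between them. phat-5 and phat-4 are close together on chromosome V, with 6 annotated genes between them, 2 of which code for protein. The single one of those 6 that was measured, T05B4.12, stood at −0.59, below both phat genes, and turned sign with median, ribosomal or no scaling and with loess centring. phat-3 has as its direct neighbour phat-7 (C49G7.3), a further gene of the same name that is not among the 6. Its probe read 19480 units in L. sphaericus-fed worms and 50656 in OP50-fed worms. The log2 difference of phat-7 was −2.60 ± 0.20, within 0.07 of phat-3 (95% interval of the difference from the scanner error −0.63 to 0.50). phat-6 has no other phat gene beside it.

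The other flanking genes varied. C46H11.7, before phat-1, stood at 0.45, close to phat-1 and phat-2, and turned sign with normexp background correction. C46H11.2, the nearest measured gene after phat-2, was 12.2-fold lower. On the far side of phat-3, the infection response gene irg-2 stood at −0.79, and nhr-57, a nuclear hormone receptor gene after phat-4, stood at −0.69. Both turned sign with ribosomal scaling and no scaling, nhr-57 also with loess centring. T05B4.10, before phat-5, was not well above background on both arrays. Around phat-6, T10B10.4 stood at 0.50 and the synaptotagmin-family gene snt-7 at −1.67. Non-coding neighbours T05B4.15, T10B10.15 and the antisense gene anr-10 had no probe named here.

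A last gene of the name, phat-8 (F15A4.6, chromosome II), was added after its values were seen. Its signal was 5555 in L. sphaericus-fed worms and 12658 in OP50-fed worms, a log2 difference of −2.41 ± 0.20, or 5.33-fold lower. With it and phat-7, 4 of the 8 phat genes in the table were past 2-fold downward, beside 32.6% of all measured genes. These 4 lay between −2.70 and −2.41, a window set by their own values. Because phat-8 came in after its value was seen, this count does not show a cluster. Probe sequences were not used here, so whether a probe binds the transcripts of more than 1 phat gene is not known. The likeness of phat-1 to phat-2, of phat-3 to phat-7 and of phat-4 to phat-5 is uncertain in that respect.

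Other genes of the gland cells gave mixed values too. hlh-6, the gene of the gland transcription factor, read 322 units in L. sphaericus-fed worms and 395 in OP50-fed worms and stood at −1.52, or 2.87-fold lower. dod-6 was 7.10-fold lower, at −2.83 ± 0.12 (SD over 3 probes), near phat-3 and phat-6. The 3 probes of kel-1, which encodes a Kelch-repeat protein of gland cells, disagreed, with −0.98, −1.09 and 0.28. The last of these was dim, at 101 units in L. sphaericus-fed worms and 35.6 in OP50-fed worms. The gene value of kel-1, −0.98, turned sign with no scaling. The astacin protease gene nas-12 lay on the opposite side. Its 6 probes read 79.8 to 134 units in L. sphaericus-fed worms, all well above background, and 5.66 to 13.03 units in OP50-fed worms, none well above background. With the main scaling, the median over its 6 probes of the lower bound was 2.52-fold higher. Each bound was taken against the dimmest normalized signal in OP50-fed worms with a flag for well above background. The 3 gland genes measured on both arrays had a median of −1.52, against −0.20 for all genes, and 2 of them were past 2-fold on the lower side, beside 32.6% of all measured genes. This number was 1 with median, ribosomal or no scaling, quantile normalization or loess centring, and 3 with detected probes.

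The 5 pharyngeal muscle genes had a median of −1.31. Of them 3 were past 2-fold downward and 0 upward, beside 32.6% and 22.1% of all measured genes. The number downward was 4 with detected probes and with loess centring, 1 with median scaling and 0 with ribosomal or no scaling, where with no scaling 1 was upward. The pharyngeal myosin genes myo-2 and myo-1 were lowest, at −1.74 ± 0.38 (SD over 6 probes) and −1.51. The least lowered were the troponin genes tni-4, at −0.87, and tnt-4, at −0.18, whose signs turned with no scaling and, for tnt-4, with median and ribosomal scaling too. Of 2 marginal cell genes, marg-1 stood at −1.64 and the intermediate filament gene ifa-1 at −0.10, a sign that turned in 7 of the settings. Body wall muscle, outside the pharynx, had a median of −0.84 over 6 genes, from −0.86 to 0.35, with 0 past 2-fold in either direction. With the 75th percentile of detected probes 4 of these 6 were past 2-fold downward, with loess centring 2, and with no scaling 2 were past it upward (1 with ribosomal scaling). Intestinal markers had a median of −0.31 over 6 genes, with 1 at least 2-fold higher and 2 lower, against 3 and 0 with no scaling. The medians of body wall muscle and intestine turned sign with no scaling, that of intestine also with median and ribosomal scaling. The part of these tissue markers in the phat values was not tested.

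Pharyngeal cuticle genes, most of them of the abu and pqn families, split as well. Of 16 listed, 12 were measured, of which 4 were past 2-fold upward and 3 downward, beside 22.1% and 32.6% of all measured genes. These counts were 6 and 1 with median or ribosomal scaling, quantile normalization or loess centring, 7 and 0 with no scaling, and 2 and 4 with normexp. Their median was 0.43, which turned sign with normexp and without the filter on dim probes. pqn-13 stood at 3.72 and the chitin synthase gene chs-2 at 1.54, each from a dim reading on the OP50-fed array (26.1 and 56.1 units). abu-15 stood at −1.86, on 1 measured probe of 3 and from a dim reading on the L. sphaericus-fed array (30.5 units), and abu-6 at −1.41. Of the other 4, abu-11 was not well above background on either array, pqn-54 was well above background in OP50-fed worms alone and was at least 5.75-fold lower, and pqn-2 and pqn-57 had no probe named here.

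Among 8 pharyngeal transcription factor genes, 2 passed 2-fold upward and 1 downward, beside 22.1% and 32.6% of all measured genes, and the median was −0.32, a sign that turned with median, ribosomal or no scaling, quantile normalization and loess centring. The counts upward and downward were 1 and 2 with normexp, and 2 and 2 with detected probes or without the filter on dim probes. They were 3 and 1 with ribosomal scaling, no scaling or loess centring. eya-1 stood at 2.43 and the homeobox gene ceh-34 at 1.24, with 0.62 as the lowest value of ceh-34 over the settings. peb-1 stood at −3.33, on 1 measured probe with 36.04 units in L. sphaericus-fed worms, near the lowest signal well above background there, 25.8. The pharyngeal identity gene pha-4 stood at −0.25 ± 0.40 (SD over 3 probes), ceh-22 at −0.61, tbx-2 at −0.39, pha-2 at −0.98 and ceh-2 at 0.25. All 5 turned sign under at least 1 setting.

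**Figure D4:**
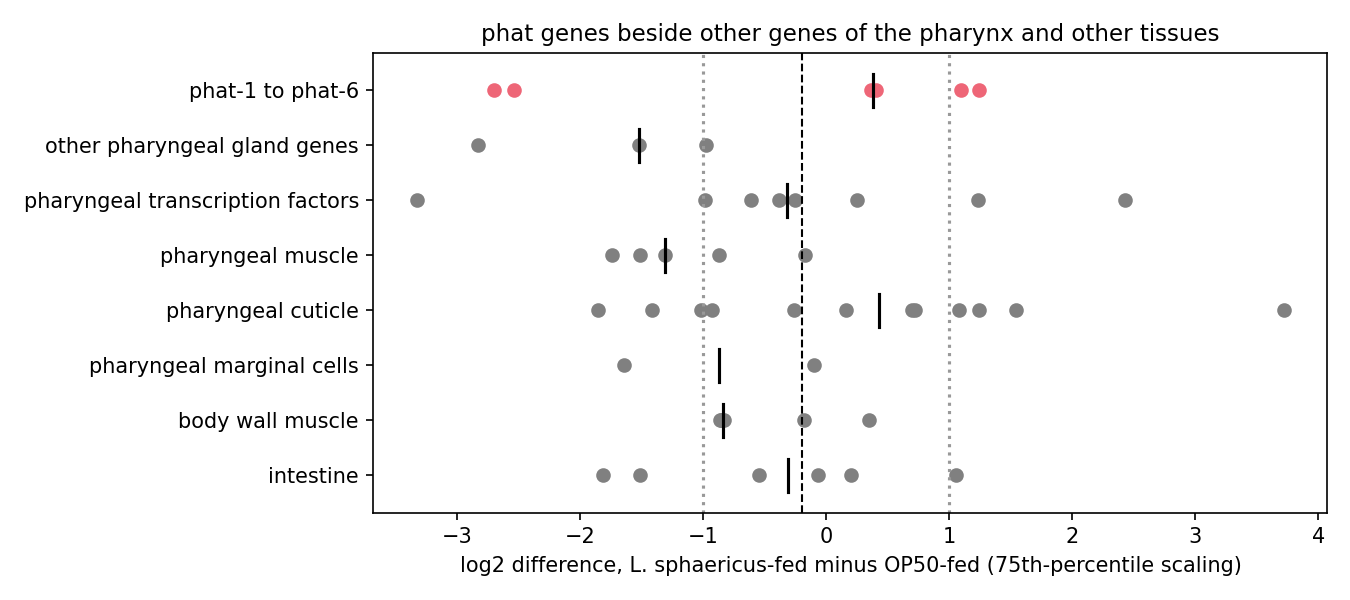
Log2 difference, L. sphaericus-fed minus OP50-fed, of the 6 phat genes (red) and of the measured genes of 7 tissue lists (grey points), 1 row per list, with the list median as a short bar, the median of all genes dashed and 2-fold dotted. The phat genes span from −2.70 to 1.24, while the 5 pharyngeal muscle genes all lie between −1.74 and −0.18 with this scaling (tni-4 and tnt-4 turn sign with no scaling).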

How the data were processed

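Spot intensity values were deposited by the authors. Per the file headers, Agilent Feature Extraction, version 11.0.1.1, made them and removed the background. The headers show 1 slide and 1 scan for both arrays. Flags for dim, saturated and outlier spots are deposited with them, and they are other quantities than levels. The deposited series table held the same intensity, within 0.01 log2 units for 43562 of 43579 probes on the L. sphaericus-fed array and 43559 on the OP50-fed array; the medians of its columns were 369 for L. sphaericus-fed and 247 for OP50-fed worms. It is on a linear scale and neither scaled nor centred.

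Control spots and 36 outlier spots were left out, and no spot was saturated. Processed signals were put on the log2 scale and averaged over the spots of a probe, and each array's 75th percentile was subtracted. Probes well above background on both arrays (31043) count as measured, and a gene takes the median of its measured probes. Names came from the RefSeq gene table of assembly WBcel235 (34300 probes named). Coordinates are left out, because the array was designed on an older build. With 1 array per diet no test could be run, and the number of arrays limits precision. The scanner error was combined over both arrays on the log2 scale and was nearly the same for all phat probes. Over 33 probes with repeated spots, the SD of the difference was 0.15.

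The members and lists were chosen with earlier results of these data known. All members are named. The gland and transcription factor lists are given whole, and of the other lists the 2 genes furthest up and the 2 furthest down, as well as the nearest gene on each side of each member. The nearest measured genes, body wall and intestine counts and phat-8 came in addition. The scripts used Python 3.11.15 and limma 3.58.1 (normexp) and were tested on simulated data.

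The alternatives were normexp (offset 50, on the spot median, since no spot mean was used here), 6 other scalings, no dim filter, the mean or brightest probe, the series table, and 1.5-fold and 3-fold thresholds. Leaving out spots with a flagged local background was chosen after seeing the data.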

Additional observations from a re-analysis of the deposited data

How the results depend on the processing

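No paired analysis was possible because there is 1 array per diet. No phat gene changed sign under any of the 12 alternatives, and phat-3, phat-4 and phat-6 each kept a difference between the diets of at least 2-fold in all of them. The number of phat genes at least 2-fold higher was 2, against 4 with median scaling, 4 with ribosomal scaling and 4 with no scaling, where phat-1 and phat-2 joined. It was 1 with the 75th percentile of detected probes, where phat-5 stood at 0.89, and 0 at a 3-fold threshold. The number lower was 2 throughout. The median of the 6 genes, 0.38, was 0.19 with normexp, 0.18 with detected probes, 1.03 with median scaling, 1.61 with no scaling, 1.20 with ribosomal scaling, 0.88 after quantile normalization and 0.91 after loess centring. These settings moved the median of all measured genes by −0.16, −0.20, 0.64, 1.23, 0.81, 0.29 and 0.30, in that order. Relative to all genes the phat median stayed between 0.55 and 0.86. After loess centring phat-1 was past 2-fold, at 1.04, and phat-2 was not, at 0.77. The order within each of the pairs phat-4 and phat-5, phat-1 and phat-2, and phat-3 and phat-6 turned after quantile normalization and after loess centring. phat-1 and phat-2 also lay closer to phat-4 and phat-5 in both of these settings. The range over the 6 genes stayed between 3.73 and 3.94. Of 116 values of single genes and phat-5 probes, 57 moved by less than the SD over repeated spots and 59 by more. Among all genes, 22.1% passed 2-fold upward and 32.6% downward; median scaling gave 37.9% and 20.8%, and no scaling 50.6% and 11.6%. No depth applies to arrays, and every phat signal was far above the lowest one well above background, 25.8 units in L. sphaericus-fed worms and 15.7 in OP50-fed worms.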
